A study of Mus musculus with 9 samples.

Results

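Transcripts of 9 mouse genes that set epithelial identity were examined: the ETS factors Elf3 and Ehf, the grainyhead-like factors Grhl1, Grhl2 and Grhl3, the zinc-finger factors Ovol1 and Klf5, and the splicing factors Esrp1 and Esrp2. They were picked by name, with earlier results of these data known, and each symbol matched 1 of the 54838 identifiers in the count table. The libraries come from PDA530 Met, a mouse line of pancreatic ductal adenocarcinoma taken from a KPC male's liver metastasis, on a mixed 129/SvJae/C57Bl/6 background. There were 3 groups with 3 libraries each, harvested untreated in normal growth medium. The knockout clone (E4) is a single-cell clone edited in Zdhhc20 with CRISPR/Cas9. The control clone (C5) is a single-cell clone nucleofected with those guides in which editing failed. The parental cells are labelled PDA530 Met, but the design text writes PDA50 Met for them. Both names were taken to mean 1 line, for which neither nucleofection nor cloning is mentioned. Each clone is 1 clone, so its libraries measure the spread of that clone only, and an effect of the edit cannot be told apart from a difference between clones.

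Epithelial cells keep their character through a small circuit of transcription factors. Grainyhead-like and OVOL factors hold junction genes active and repress genes of the mesenchymal state, ELF3 and EHF are ETS factors found almost only in epithelia, and KLF5 drives growth and gene expression in gut and pancreatic epithelium. ESRP1 and ESRP2 are RNA-binding proteins that select the epithelial forms of transcripts, and both are usually lost when carcinoma cells become mesenchymal.

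Total counts ran from 16525869 to 23192701 per library, and levels are given as CPM, the count divided by the TMM-scaled library total. Zdhhc20 itself was at 33.9 to 42.5 CPM in the knockout clone, against 85.8 to 123 CPM in the control clone and 75.3 to 90.7 CPM in the parental line, so its transcript was lower in the libraries labelled knockout but still present. Of 7 markers of ductal carcinoma, 6 had a mean of at least 1 CPM, and the exception was Epcam, an adhesion molecule of most epithelia, with 54 counts in all 9 libraries together. The summed level of the 7 markers was 3910.0 to 4117.9 CPM in the knockout clone, 6290.4 to 8464.5 CPM in the control clone and 6346.5 to 7796.0 CPM in the parental line. Markers of leukocytes, endothelium, acinar cells and fibroblasts summed to at most 7.66 CPM in any library. Among them, the acinar Cela1 and the leukocyte Cd68 were lower in the knockout clone against the control clone only (log2 fold changes -2.19 and -1.1). The fibroblast marker Pdgfra was lower against the control clone and the parental line (-1.24 and -2.04). The hepatocyte list was carried by Apob, while Alb held 4 counts in all libraries and Fgb none. Apob was lower in the knockout clone against the control clone (log2 fold change -0.77, adjusted p = 0.0126) but not against the parental line (adjusted p = 0.151). Ttr, of the same list, held 0 counts in the knockout libraries, 12 in the control libraries and 72 in the parental libraries.

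Only some of the 9 genes were expressed in this line. Compared per length of exon, the order in the parental line was Klf5 at 33.7 ± 1.55, Elf3 at 22.5 ± 4.93, Esrp2 at 11.4 ± 0.657, Grhl3 at 1.55 ± 0.74, Grhl1 at 0.628 ± 0.104 and Ehf at 0.12 ± 0.0339 CPM per kb (SD, n = 3). The neighbours Grhl3 and Grhl1 were separate in each parental library. In the control clone Elf3 at 30.2 ± 12.5 and Klf5 at 31.2 ± 2.34 CPM per kb did not differ beyond their spread, and neither did Grhl1 at 0.992 ± 0.208 and Grhl3 at 0.731 ± 0.903 CPM per kb. In the knockout clone the order changed: Klf5 stood at 30.7 ± 1.7, Esrp2 at 9.85 ± 0.803, Elf3 at 5.66 ± 0.171 and Grhl1 at 0.424 ± 0.0384 CPM per kb. Elf3 thus lay above Esrp2 in every control and parental library but 0 of the 3 knockout libraries.

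**Figure D1:**
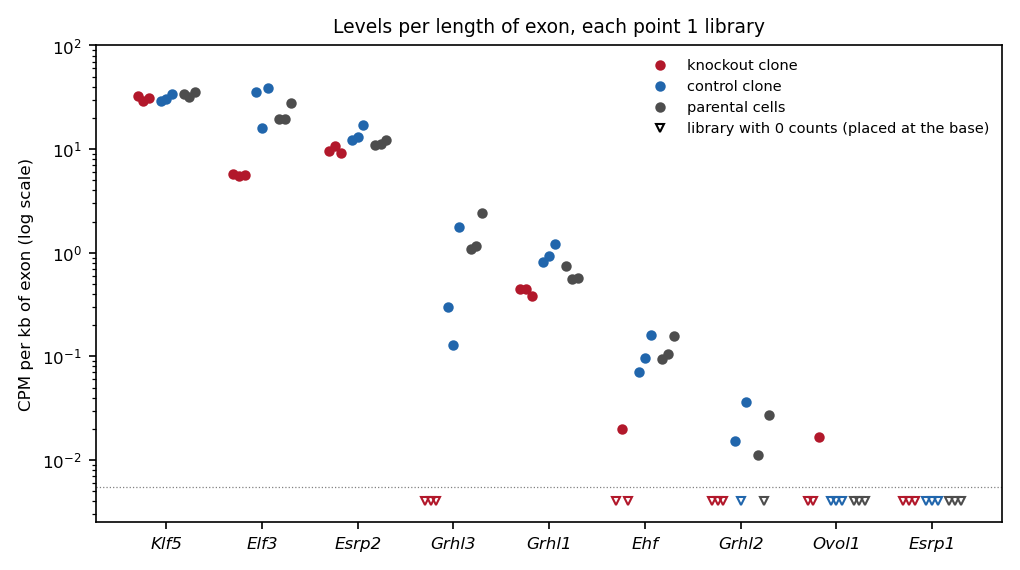
Level of each gene per kb of exon on a log axis, with 1 point per library and open triangles for libraries that held 0 counts. Klf5, Elf3 and Esrp2 lie above 5 CPM per kb in all 9 libraries, and Esrp1 is at 0 throughout.

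Grhl2, Ovol1 and Esrp1 were at or near 0 in all 3 groups and did not pass the filter on low counts. Esrp1 held 0 counts in the 9 libraries, which allows a level of up to 0.0177 CPM from counting error alone. Ovol1 held 1 count, in knockout replicate 3. Grhl2, the family member best known for keeping E-cadherin and other junction genes active, held 9 counts in the control libraries, 6 in the parental libraries and 0 in the knockout libraries. Its counts were 3, 0 and 6 in the control replicates and 2, 0 and 4 in the parental replicates. No fold is given for Grhl2, because without replicate 3 the control libraries held 3 counts and the parental libraries 2, which is not above the floor of 3 counts over a group. Floors and counting intervals of this kind hold only the error of counting, because reads lacking molecular identifiers can be copies of 1 molecule. No difference in Grhl2 passed the test at this depth: without the filter, edgeR gave adjusted p = 0.0804 and 0.168.

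**Figure D2:**
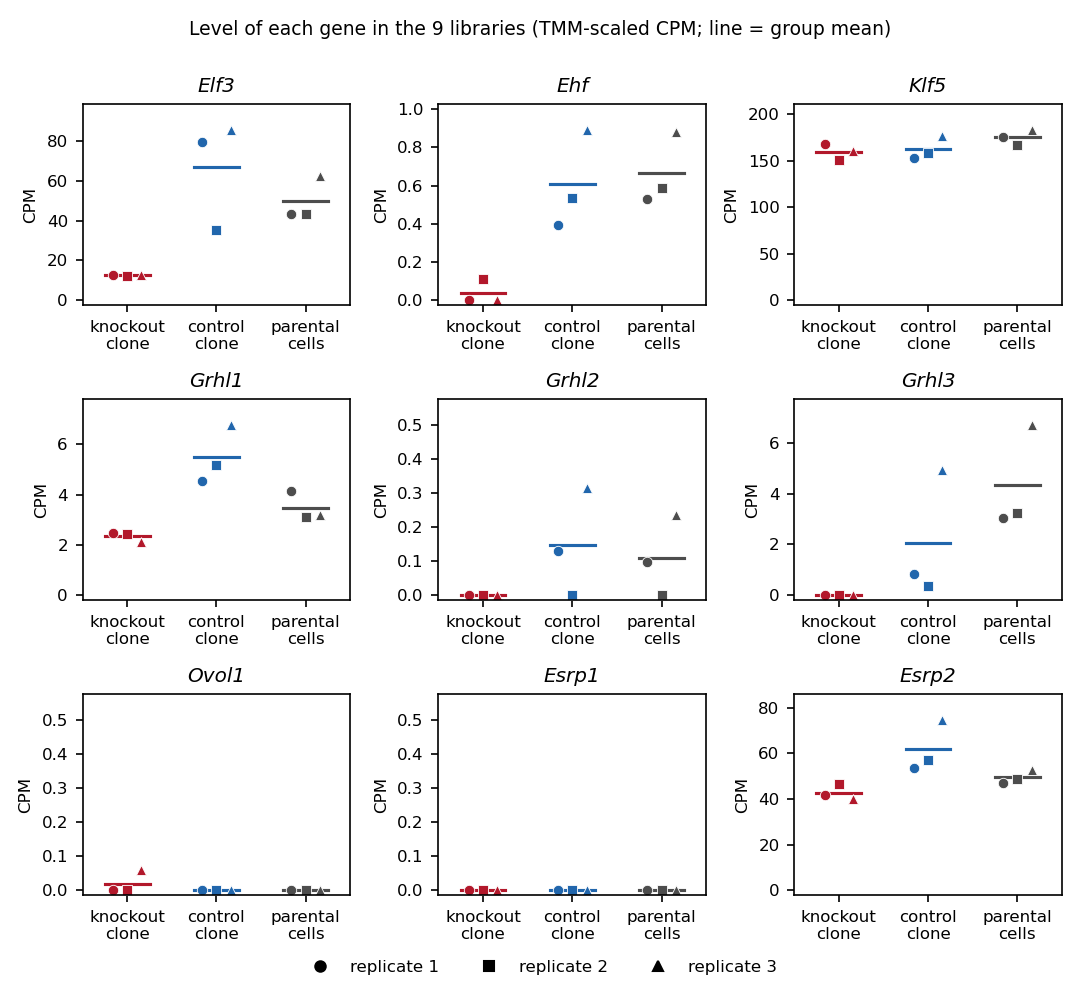
TMM-scaled CPM of the 9 genes in each library on linear axes that start at 0, with the group mean as a line. The 3 knockout libraries of Elf3 lie together at 12.2 to 12.9 CPM, below all others, while Klf5 overlaps between the groups.

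Of the 6 genes that passed the filter, 5 were lower in the knockout clone when compared with the control clone: Elf3, Ehf, Grhl1, Grhl3 and Esrp2. None was higher, and Klf5 was not called (adjusted p under 0.05 counted as a call). Of all 13153 genes tested, 24.2% were lower in this comparison. Against the parental line 3 of the 6 were lower, Elf3, Ehf and Grhl3, beside 18.3% of all genes tested. These 3 were the members apart from both other groups, beside 13.4% of all genes lower in that sense. Between the control clone and the parental line 1 member was called, Grhl1, which was higher in the control clone, beside 10.4% of all genes. Libraries of the compared groups did not overlap for 5, 5 and 2 of the 6 members, beside 51.6%, 61.5% and 37.3% of all genes. The median log2 fold change of the 6 members was -1.82, -1.28 and 0.11 in these comparisons, beside -0.02, -0.01 and 0.01 over all genes tested. Ehf and Grhl3 passed the filter through the control and parental libraries only, so they had to differ from the knockout libraries. The members were also chosen with earlier results of these data known. For both reasons these counts and medians are descriptions only. With a mean of at least 5 CPM required, 3 members were left, of which 2 were called against the control clone and 1 against the parental line. The knockout comparisons share the knockout libraries, and each value below is given for both. In bulk RNA, fewer cells that express a gene and less RNA per cell cannot be told apart.

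Elf3, an ETS factor of simple and glandular epithelia, had the lowest adjusted p of the 6 tested members in both knockout comparisons. Its level was 12.9, 12.2 and 12.5 CPM in the knockout replicates, at 79.6, 35.2 and 85.8 CPM in the control replicates, and at 43.4, 43.6 and 62.4 CPM in the parental replicates. The knockout libraries were nearly equal and lay below every other library, and the lowest of the others was control replicate 2. The log2 fold change was -2.42 against the control clone (SE 0.31, 95% interval -3.1 to -1.73, adjusted p = 0.000288) and -1.99 against the parental line (SE 0.30, 95% interval -2.67 to -1.3, adjusted p = 0.00124). Both calls held in each of the 18 fits tried, with adjusted p of at most 0.00273 and 0.00913. The control clone and the parental line overlapped (log2 fold change 0.43, adjusted p = 0.315), but without control replicate 2 Elf3 was higher in the control clone (0.73, adjusted p = 0.00522).

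Ehf, the close relative of Elf3, was far lower in level. Its counts were 0, 2 and 0 in the knockout replicates, 9, 9 and 17 in the control replicates, and 11, 10 and 15 in the parental replicates. Every knockout library lay below every other library. With only 2 counts in the knockout clone, the ratio of summed levels was 16.5 against the control clone (95% counting interval 4.25 to 142) and 18.3 against the parental line (4.71 to 157). The adjusted p was 0.00463 and 0.00545, against 0.875 for control clone and parental line. Ehf passed the filter only where it is high, and in the fit with no filter the adjusted p was 0.00162 and 0.00155. Without knockout replicate 2 no count of Ehf was left in the knockout clone, which set bounds of at least 7.46-fold and 8.25-fold lower. Elf5, of the same ETS subfamily and also on chromosome 2, held 0 counts.

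Of the grainyhead-like genes, Grhl3 had no count in the knockout libraries and Grhl1 was lower there than in the control clone. Grhl3 is known for epidermal barrier formation and closure of the neural tube. It held 0 counts in all 3 knockout replicates, 19, 6 and 94 in the control replicates, and 63, 55 and 114 in the parental replicates. In CPM the control replicates were at 0.829, 0.357 and 4.93 and the parental replicates at 3.03, 3.24 and 6.71. Control replicate 3 thus held most of the control counts and lay within the parental range, while the other control replicates lay below it. Grhl3 in the knockout clone was lower by at least 37.5-fold against the control clone (adjusted p = 0.0128) and by at least 78.5-fold against the parental line (adjusted p = 0.0077). Grhl3 too passed the filter only where it is high, and with no filter the adjusted p was 0.000101 and 1.23e-05. The first bound fell to 11.7-fold without control replicate 3. Control and parental libraries were not separated by the test (log2 fold change -1.08, 95% interval -2.98 to 0.83, adjusted p = 0.389), yet without control replicate 3 the control clone was lower, at -2.80 (adjusted p = 0.00942).

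Grhl1, which regulates desmosomal genes in skin, was at 2.49, 2.45 and 2.1 CPM in the knockout replicates, 4.54, 5.18 and 6.77 CPM in the control replicates and 4.14, 3.12 and 3.18 CPM in the parental replicates. The 3 groups did not overlap, with the knockout clone lowest and the control clone highest. The log2 fold change against the control clone was -1.22 (SE 0.21, 95% interval -1.69 to -0.75, adjusted p = 0.00148), and this call held in all 17 fits. Against the parental line it was -0.57 (SE 0.21, 95% interval -1.05 to -0.09), which was not called (adjusted p = 0.0705). That value was called in 2 of 17 fits, when only these groups were fitted (adjusted p = 0.0331) and without control replicate 3 (adjusted p = 0.0362). Set against the parental line, Grhl1 was 0.65 higher in the control clone (SE 0.20, adjusted p = 0.0484), and this call was lost in 12 of the 17 fits, with adjusted p up to 0.165.

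The balance between Grhl1 and Grhl3 was followed library by library. The log2 ratio of Grhl1 to Grhl3, per length of exon and with 0.5 counts added to each, was 5.70, 5.49 and 5.20 in the knockout replicates, which held no Grhl3 count and so depend on the added count. In the control replicates it was 1.43, 2.76 and -0.54, and in the parental replicates -0.54, -1.04 and -2.06. Grhl3 was thus the more abundant of the pair in all 3 parental libraries and in control replicate 3 only. The exact two-sided permutation test of control against parental gave p = 0.1, the smallest that 3 against 3 libraries allow, and 0.188 after adjustment over the 15 tests of 5 gene pairs.

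**Figure D3:**
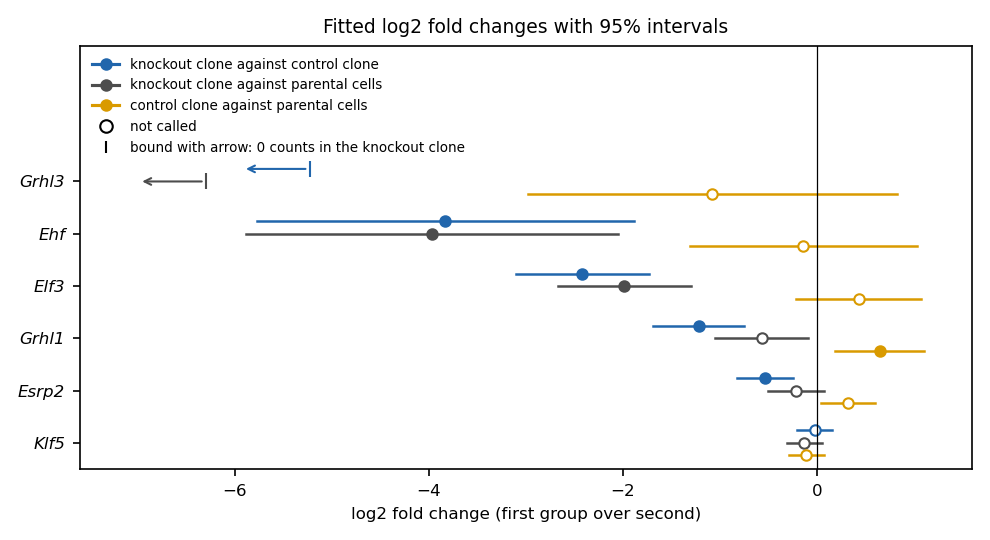
Fitted log2 fold changes of the 6 genes that passed the filter, with 95% intervals, for the 3 comparisons; filled points were called, and the arrows of Grhl3 start at the bound set by 0 counts in the knockout clone. Elf3, Ehf and Grhl3 lie below 0 against both other groups, and Klf5 lies near 0 in each comparison.

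The start regions of Elf3 and Grhl3 are shown because these genes were lower in the knockout clone against both groups and a promoter window of each was found in RefSeq (build GRCm38.p6). Each window holds 250 bases before the annotated start and 50 after it, and is written 5′ to 3′ on the strand of the gene. The Elf3 window is chr1:135258423-135258722 and the Grhl3 window chr4:135573583-135573882, both on the minus strand. Capitals mark the letters CACCTG or their reverse complement CAGGTG, the E-box that ZEB and SNAIL repressors bind.
Elf3: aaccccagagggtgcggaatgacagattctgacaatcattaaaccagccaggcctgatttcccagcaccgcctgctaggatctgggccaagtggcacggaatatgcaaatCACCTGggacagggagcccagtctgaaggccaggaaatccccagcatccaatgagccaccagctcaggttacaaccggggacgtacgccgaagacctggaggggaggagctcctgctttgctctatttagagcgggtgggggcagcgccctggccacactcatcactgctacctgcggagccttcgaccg
Grhl3: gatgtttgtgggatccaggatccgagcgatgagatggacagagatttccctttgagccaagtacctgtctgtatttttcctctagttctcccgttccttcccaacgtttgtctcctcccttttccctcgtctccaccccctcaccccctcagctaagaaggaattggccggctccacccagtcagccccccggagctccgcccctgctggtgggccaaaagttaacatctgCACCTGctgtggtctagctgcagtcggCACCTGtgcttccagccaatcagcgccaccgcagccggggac
The Elf3 window held 1 such match, 140 bases before the start, and the Grhl3 window held 2, which began 19 bases before and 8 bases after it. These distances are from the RefSeq start; the GENCODE span of Elf3 begins further upstream, so its match lies nearer to that start. At least 1 such match was in 20.2% of the 32851 RefSeq promoter windows. Neither of the 2 windows of Grhl1 did, and only Elf3, Grhl1 and Grhl3 among the 9 genes were matched. The grainyhead palindrome AACCGGTT (0.146% of all windows), the KLF box GGGTGTG (7.95%) and the OVOL core CCGTTA (2.76%), each searched on both strands, were in none of the 4 windows. A match is only a string of letters, since no binding was measured.

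Klf5 was the most abundant of the 9 genes per length in the knockout and parental libraries, and in the control clone it was level with Elf3 within their spread. Its level was 168.2, 150.6 and 160.8 CPM in the knockout replicates, 152.8, 158.5 and 176.2 CPM in the control replicates and 175.7, 167.1 and 183.2 CPM in the parental replicates. The groups overlapped. The log2 fold change was -0.02 against the control clone (95% interval -0.2 to 0.16, adjusted p = 0.837), -0.13 against the parental line (-0.31 to 0.05, adjusted p = 0.235) and -0.11 for control clone against parental line (-0.29 to 0.07, adjusted p = 0.361). Klf5 was called in 0 of the 18 fits in each comparison, DESeq2 and limma voom included, and its unadjusted edgeR p was 0.13 or more in all 3.

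Of the splicing factors only Esrp2 was expressed. Esrp2 was at 41.6, 46.7 and 40 CPM in the knockout replicates, 53.6, 57.2 and 74.7 CPM in the control replicates and 47.1, 48.7 and 52.7 CPM in the parental replicates. The knockout libraries lay below all others, by a narrow margin against the parental line. Per length, Esrp2 was at least 4208-fold higher than Esrp1 over the 9 libraries. Its log2 fold change was -0.53 against the control clone (SE 0.13, 95% interval -0.82 to -0.25, adjusted p = 0.00811), called in all 18 fits. Against the parental line it was -0.21 (SE 0.13, 95% interval -0.5 to 0.07, adjusted p = 0.235), called only in the fit of those groups alone (adjusted p = 0.0356). The control clone was 0.32 higher than the parental line, which was not called (adjusted p = 0.101). Esrp2 overlaps Nfatc3 and 1810019D21Rik in the annotation, so reads may be divided between them.

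Other RNA-binding proteins that act in epithelial or mesenchymal splicing moved in both directions. Of 15 listed, 14 passed the filter, of which 3 were lower and 8 higher against the control clone, beside 24.2% and 18.7% of all genes. Against the parental line 3 were lower and 3 higher, beside 18.3% and 13.1%. For control clone against parental line 4 were lower and 0 higher, beside 11.0% and 10.4%. Mbnl3 was the one with the largest difference among the 8 higher genes, at 9.52 to 11.8 CPM in the knockout replicates, 1.4 to 1.61 CPM in the control replicates and 13.4 to 16.2 CPM in the parental replicates. It was thus low in the control clone, and the knockout clone was below the parental line (log2 fold change -0.54, adjusted p = 0.0128). Rbm47, an epithelial splicing and RNA-editing cofactor, was lower by log2 fold changes of -1.21 (adjusted p = 0.00156) and -1.39 (adjusted p = 0.00118), at 50.9 to 58.9 CPM in the knockout clone, 85.8 to 171 CPM in the control clone and 134 to 166 CPM in the parental line. Qki, which favours mesenchymal exon choice, was higher by 0.61 and 0.57, Ptbp2 by 0.90 and 0.41, and Hnrnpm by 0.48 and 0.39. The Hnrnpm call against the parental line was lost in 5 of the fits without 1 library (adjusted p up to 0.0844). Of 10 genes with exons known to be ESRP-regulated, 9 passed the filter. Ralgps2 was lower in the knockout clone against both groups (-0.76 and -0.59), 4 were higher against the control clone, and none was higher against the parental line. Fgfr2, the classic ESRP target, held 3 counts in all. Gene totals do not show which exons were used.

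Within the control and parental groups most members were highest in the same library, a pattern picked out after the values were seen and not shared by the knockout clone. In the control clone all 6 tested members were highest in replicate 3, while 40.7% of all tested genes were. In the parental line 5 of the 6 were highest in replicate 3, the exception being Grhl1, beside 38.1% of all genes. In the knockout clone Elf3, Grhl1 and Klf5 were highest in replicate 1, Ehf and Esrp2 in replicate 2 and none in replicate 3, beside 33.3%, 35.7% and 31.0% of all genes, and Grhl3 was at 0. Among control libraries, replicate 3 exceeded replicate 2 by 13.8-fold for Grhl3, 2.44-fold for Elf3, 1.67-fold for Ehf, 1.31-fold for Grhl1 and Esrp2 and 1.11-fold for Klf5, where the median over 10019 genes was 0.972. Of these genes, which averaged 5 CPM or more, 2.93% had a larger ratio than Elf3, 21.2% a larger one than Grhl1 and Esrp2, and 34.8% a larger one than Klf5. Grhl1, Grhl3 and Ehf averaged under 5 CPM over the 9 libraries and so have more counting error than these genes. The SD of log2 CPM of Elf3 was 0.712 in the control clone, 0.301 in the parental line and 0.0432 in the knockout clone, beside medians of 0.203, 0.0839 and 0.0753 over the 10020 genes that averaged 5 CPM or more. Grhl3 had SDs of 1.77 and 0.62 in the control and parental libraries, but it averaged under 5 CPM and was not ranked among those genes, since its counting error is larger. The ductal marker Krt19 followed the same libraries, at 823 CPM in control replicate 2 and 1993 CPM in control replicate 3. The labels name no batch, and the part of these library differences in the comparisons was not tested beyond leaving out each library.

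**Figure D4:**
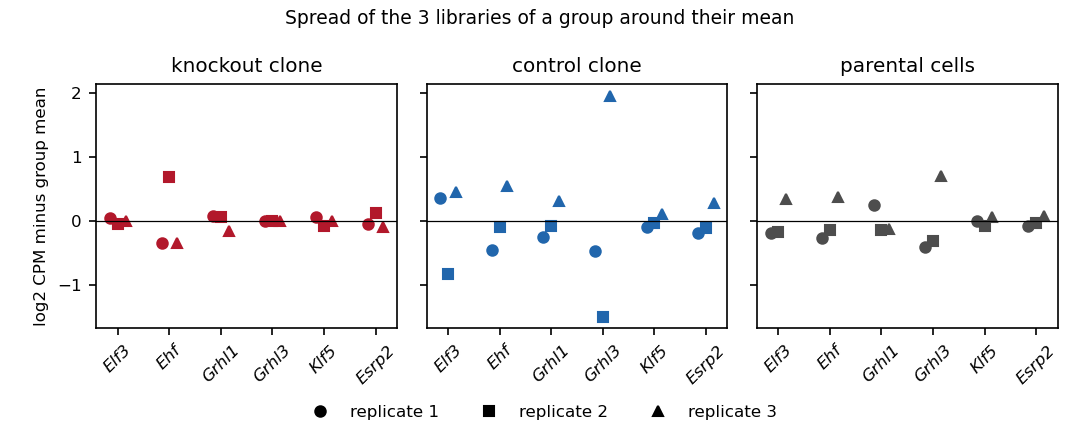
Deviation of each library from its group's mean log2 CPM for the 6 tested genes. Control replicate 3 lies above 0 for all 6 genes, and control replicate 2 is lowest for Elf3 and Grhl3.

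Relatives of the members were examined to see which other family genes these cells hold. Of 10 listed ETS, grainyhead and OVOL relatives, 6 passed the filter. Ovol2, Ovol3 and Elf5 held 1, 1 and 0 counts in all libraries, and Spdef, a secretory-cell ETS factor, held 12. Tfcp2l1, a more distant grainyhead relative, was at 2, 1.89 and 1.69 CPM in the knockout replicates, 12.2, 6.84 and 14.7 CPM in the control replicates and 15.8, 17.6 and 25.1 CPM in the parental replicates. The log2 fold change was -2.59 against the control clone (SE 0.31, adjusted p = 0.000203) and -3.38 against the parental line (SE 0.31, adjusted p = 8.02e-05), so this relative was lower in the knockout clone against both groups. Elf4 was slightly lower and Elf2 slightly higher against the control clone, and neither was called against the parental line.

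Repressors that oppose the epithelial circuit were called in both directions. Of 8 listed, 5 passed the filter, and in each knockout comparison 2 were higher and 1 was lower, beside 18.7% and 24.2% of all genes in the comparison with the control clone, then 13.1% and 18.3% in that with the parental line. Zeb2 was at 35.6, 31.3 and 32.4 CPM in the knockout replicates, 7.81, 10.5 and 11.8 CPM in the control replicates and 19.9, 19 and 18 CPM in the parental replicates. The groups did not overlap, and the log2 fold change was 1.72 against the control clone (SE 0.14, adjusted p = 3.12e-05) and 0.80 against the parental line (SE 0.14, adjusted p = 0.00244), while control clone against parental line gave -0.93 (adjusted p = 0.00258). Snai2 was higher by 0.48 (adjusted p = 0.00933) and 0.77 (adjusted p = 0.0013). Twist1 had no count in any knockout library, which puts it at least 6.3-fold below the control clone and at least 41.3-fold below the parental line. It passed the filter only through the libraries where it is high, and with no filter its adjusted p was 0.00049 and 3.31e-07. Zeb1 was at 52.9 to 64.7 CPM in the 9 libraries, with 95% intervals of the log2 fold change from -0.26 to 0.1 and -0.17 to 0.2. Snai1 did not pass the filter and held 33 counts in the knockout clone, 3 in the control clone and 12 in the parental line.

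Epithelial effector genes, the junction, adhesion, keratin and protease genes that the members are known to support, were called in both directions. Of 21 listed, 14 passed the filter, of which 7 were lower and 4 higher against the control clone, and 6 lower and 3 higher against the parental line, with medians of -0.35 and -0.32. Of all genes tested 24.2% were lower and 18.7% higher in the first comparison, and 18.3% and 13.1% in the second. For control clone against parental line 2 were lower and 2 higher, beside 11.0% and 10.4% of all genes. The 2 lower were Cldn7 (-1.09) and Marveld2 (-1.49). Both were among the 4 higher in the knockout clone against the control clone, and neither was called against the parental line. Krt19 was lower by log2 fold changes of -3.12 and -2.73 (adjusted p = 8.76e-05 and 0.000278), and Dsp, a desmosome plaque protein, by -1.35 and -1.59 (adjusted p = 0.00104 and 0.000687). Cldn4, a tight-junction claudin, was higher by 3.57 and 3.29 (adjusted p = 0.000646 and 0.0014), at 0.835 to 2.04 CPM in the knockout clone and at most 0.193 CPM elsewhere. Epcam was also higher, by 1.96 and 1.58 (adjusted p = 0.00393 and 0.0139), at no more than 0.635 CPM, and its second call was lost in 4 fits (adjusted p up to 0.0821). Marveld3, a tight-junction protein among the 7 lower genes, passed the filter mainly through the control libraries, at 0.892 to 2.26 CPM, and lay at 0.111 to 0.244 CPM in the knockout clone. Cldn4 and Epcam passed the filter only through the knockout libraries, where they are high, so the part of all 3 genes in these counts is a description. With no filter the adjusted p was 6.7e-05 and 0.000204 for Cldn4 and 0.0229 and 0.0821 for Epcam. Cdh1, a direct grainyhead target in other epithelia, stayed abundant and was lower by -0.74 and -0.65. Of this list 5 genes are also among the 7 ductal markers, so the counts overlap with the marker sums given above.

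**Figure D5:**
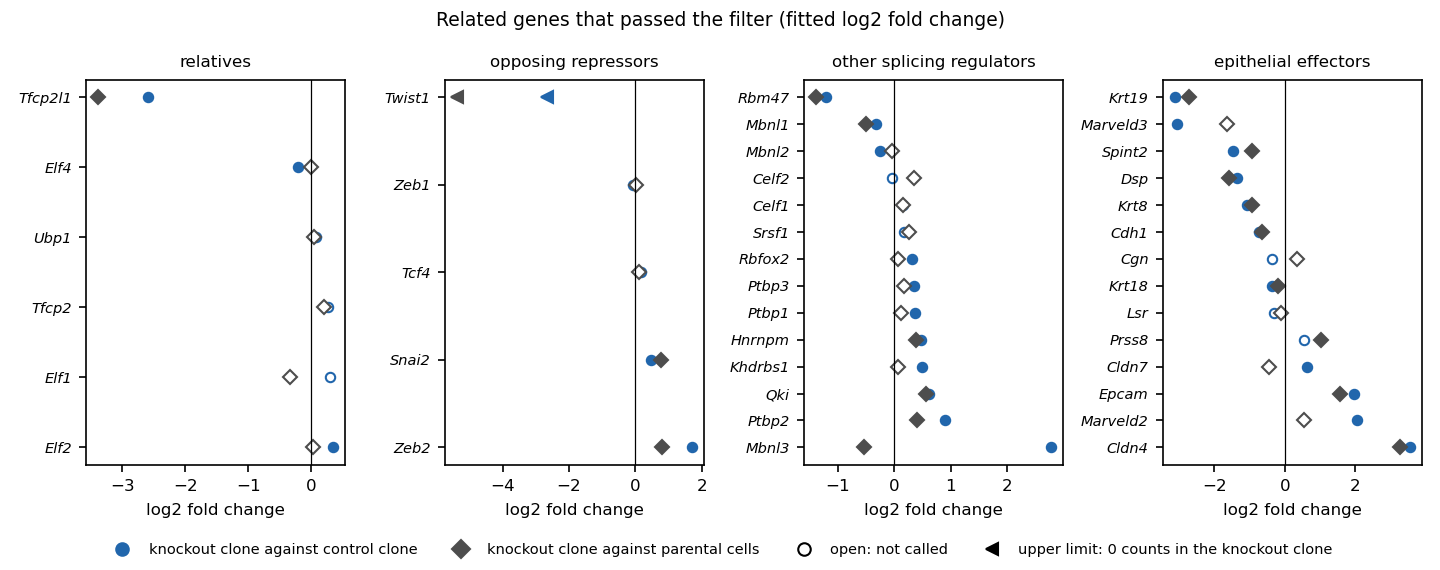
Fitted log2 fold changes of related genes that passed the filter, knockout clone against control clone (circles) and against parental line (diamonds); open symbols were not called, and triangles mark the limit set by 0 counts in the knockout clone. Tfcp2l1, Rbm47 and Krt19 lie to the left of 0 in both comparisons, and Zeb2, Qki and Cldn4 to the right.

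The genes whose log2 CPM followed each member most closely over the 9 libraries were named by Pearson's r over 10014 genes that averaged 5 CPM or more. The libraries fall into 3 groups, so r mainly reflects the group means and is a description. Elf3 was matched by Selenop (r = 0.997) and Lima1 (0.994), Ehf by Nadsyn1 (0.985) and Baiap2 (0.983), and Grhl3 by Anxa6 (0.991) and Pkm (0.99). Grhl1 was matched by Iqsec1 (0.982) and Adcy6 (0.978), and Esrp2 by Tmem62 (0.982) and Cers6 (0.974). Selenop averaged 28.3 ± 1.8 CPM over the knockout replicates, 267.0 ± 125.3 CPM over the control replicates and 162.7 ± 45.9 CPM over the parental replicates (SD, n = 3). An r over 0.9 was reached by 831 genes for Elf3 and by 3 for Klf5, whose closest were Smpd1 (0.927) and Supt7l (0.902).

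The 9 genes lie on 8 chromosomes, with Grhl3 and Esrp1 both on chromosome 4. In GRCm38 Elf3 spans chr1:135253575-135258568, Ehf chr2:103263433-103303278, Grhl1 chr12:24572283-24617391, Grhl3 chr4:135541888-135573630, Klf5 chr14:99298691-99315036 and Esrp2 chr8:106130319-106136974. The median log2 fold change of all tested genes on the same chromosome, knockout against control clone, was 0.04 for Elf3, -0.07 for Ehf, -0.25 for Grhl1, 0.03 for Grhl3, 0.19 for Klf5 and -0.04 for Esrp2. For chromosome 12, which holds Grhl1, the median was 0.02 for knockout against parental libraries and 0.29 for control against parental libraries, so the control clone was the group that stood apart. The same medians were 0.21 and 0.04 for chromosome 14, which holds Klf5 and Zdhhc20. On chromosome 1, which holds Elf3, they were -0.14 and -0.17. Of the 6 tested genes nearest to Grhl3, 4 were lower against the control clone and 2 against the parental line, where 24.2% and 18.3% of all genes were. The same counts were 0 and 0 for Elf3, 0 and 1 for Ehf, 2 and 1 for Grhl1, 1 and 0 for Klf5, and 1 and 0 for Esrp2. Higher were 2 and 3 of the nearest genes for Klf5 and 2 and 1 for Elf3, beside 18.7% and 13.1% of all genes. None was higher for Ehf, Grhl1, Grhl3 or Esrp2. Elf3 overlaps the annotated gene Gm26642, and antisense reads cannot be told apart because the strand setting is not given in the sources used here.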

How the data were processed

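RNA-seq libraries came from the KAPA mRNA HyperPrep kit, per the labels' protocols. The deposited values are RSEM expected counts per gene, 1 column per library, and all were whole numbers, so rounding changed none. The submitters' processing notes name STAR 2.5.2, RSEM 1.3.0, DESeq2 1.10.1 and GRCm38, with no role or order. The annotation release and strand setting are not given in the sources used here. RSEM divides reads shared by several genes by an estimate, so values of overlapping genes are uncertain. Replicates are called biological in the design text.

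Symbols, positions and exon lengths came from GENCODE M21 (GRCm38), which held 54809 of the 54838 identifiers. Qki was matched through its older symbol. All 9 libraries entered 1 fit by group with edgeR 4.0.16 in R 4.3.3 (filterByExpr with minimum count 10 and total 15, TMM, quasi-likelihood test), which left 13153 genes. Calls needed p under 0.05 after Benjamini-Hochberg adjustment over all these genes, and adjusted p-values in the text come from this test where no other tool is given. The fit was tested on simulated counts. SE is the log2 fold change over the square root of F. Per-length levels divide CPM by the union of exons. Other values were computed with scipy 1.17.1 and pandas 2.3.3.

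The members and lists were chosen with earlier results of these data known. Named were all members, Zdhhc20, fixed genes of each list (Ovol2, Elf5, Spdef, Zeb1, Zeb2, Snai1, Snai2, Twist1, Rbm47), up to 4 genes per list called the same way against both groups, and the 2 genes most like each member. Ovol3, Elf2, Elf4, Fgfr2, Cdh1, Mbnl3 and Marveld3 fall outside this rule and were named after their values were seen. So were Marveld2, Cldn7, Enah, Arhgef11, Apob, Alb, Fgb, Cela1 and Cd68. Alternatives were the scaling by DESeq2 1.42.0 size factors or total counts, either no filter or one that keeps genes averaging 5 CPM, DESeq2, limma 3.58.1 voom, a replicate block, only the groups compared, and each library left out.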

Additional observations from a re-analysis of the deposited data

How the results depend on the processing

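Of 294 values of members under an alternative, 277 stayed on their side of the threshold, 12 lost a call and 5 gained one. For the other named genes the numbers were 735, 9 and 9 of 753. The sign changed in 5 values of members and 6 of other genes, none of them called in either fit, and 0 called values changed sign. Requiring also a log2 fold change of 1 or more in size lowered the genes called to 1843 (knockout against control clone), 1392 (knockout against parental line) and 851 (control clone against parental line). Fitted on only the groups compared, the second was 6840 and the third 1525, and members called against the control clone fell to 3, because Ehf and Grhl3 no longer passed the filter. With a mean of at least 5 CPM, 2, 1 and 0 members were called in the 3 comparisons and 1 was apart in the knockout clone, because 3 members were left. The single member called between control clone and parental line, Grhl1, had a log2 fold change of 0.65, under the added threshold of 1. Nor was Grhl1 called with limma voom, no filter, only the groups compared, the replicate block or total counts (0 members each). The cause of these losses was not tested.

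Leaving out 1 library gave 4301 to 7204, 2515 to 5693 and 1472 to 4102 genes called in the 3 comparisons. The second count was lowest without parental replicate 3 (2515) and knockout replicate 1 (2626), and the third without parental replicates 1, 2 and 3 (1472, 1537 and 1792). Members called were 5 throughout, 3 to 4, and 0 to 2, and 3 to 4 members were apart.

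The replicate numbers are shared between groups. Same-numbered libraries had correlations of deviations from -0.223 to 0.344, highest for control replicate 3 with parental replicate 3. Differently numbered libraries had correlations from -0.459 to 0.47, so the numbers showed no clear pairing. With the replicate block 5528, 3941 and 2492 genes and 5, 3 and 0 members were called. Ehf, Grhl2, Grhl3 and Ovol1 are limited by counts, with at most 114 in a library.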
